A study of Mus musculus with 96 samples.

Results

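The peaks described here lie near genes of the TNF superfamily: its ligands (Tnfsf genes), its receptors (Tnfrsf genes), the TNF-induced Tnfaip genes and the receptor adaptors Traf1 to Traf7. A peak was taken when the authors' annotation gave one of these as its nearest gene, with the peak centre at most 50 kb from the start of transcription. Tnfrsf1a, Tnfrsf1b and Tnfaip3 were left out by the same rule. This gave 84 of 46832 peaks in hepatocyte nuclei (25 genes) and 75 of 30170 peaks in macrophage nuclei (27 genes). Together they cover 35 genes, with 17 in both tables, 8 in the hepatocyte table alone and 10 in the macrophage table alone. The gene name is that of the nearest start and does not show which gene a peak acts on, and 13 hepatocyte and 11 macrophage member peaks lie inside the body of another gene. One locus name, Tnfsfm13, was caught by the name pattern and joins the neighbouring Tnfsf12 and Tnfsf13 genes.

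TNF superfamily ligands are mostly trimeric membrane proteins made by immune cells, and they act on receptors that either carry a death domain or bind TRAF adaptors. TRAF proteins join the receptors to ubiquitin ligases and kinases that switch on NF-kB and stress kinases, while death domain receptors can start caspase-driven cell death. In liver this family is known for controlling hepatocyte death and regeneration, and Kupffer cells, the resident macrophages, are a main source of TNF.

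ATAC-seq, in which a transposase cuts and tags open DNA, was run on nuclei captured from the livers of female mice. HEP-INTACT mice gave the nuclei labelled hepatocyte and MAC-INTACT mice those labelled macrophage; INTACT means that nuclei of 1 cell type are tagged and pulled down on beads, and the labels give neither the tagged allele nor the age of the mice (macrophage samples carry a mark, lys, that is not explained). Mice of each line were fasted from ZT12 (ZT is hours after lights on, so the fast began as the active phase began) and killed after 3, 8, 16 or 24 h, at ZT15, ZT20, ZT4 and ZT12. Fed mice with free access to food were killed at the same 4 times, which gave 16 groups of 4 mice. The labels name no further treatment. Macrophage libraries had been run as technical duplicates, which are 1 column per mouse in the table, so that the mouse is the replicate. Mice are numbered 1 to 4 within a group in the order of the series, and the numbers pair nothing.

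Values are normalized reads in a peak of 200 bp. Recovered reads in peaks ranged from 2458156 to 6098645 per hepatocyte library (median 4364781) and from 1729720 to 4637873 per macrophage library (median 3531871). All 8 hepatocyte markers had peaks in the hepatocyte table, where 1 of 10 Kupffer cell and macrophage markers had any, with 1 peak. The macrophage table held peaks of all 10 Kupffer cell and macrophage markers and of 1 of 8 hepatocyte markers, with 2 peaks. Lymphocyte markers had no peak in the hepatocyte table and 1 of 6 had a peak in the macrophage table. Of 7 sinusoidal endothelial markers 4 had peaks in each table, 6 peaks in the hepatocyte and 10 in the macrophage table. Their median sums were 293 and 432 normalized reads, beside 6369 for hepatocyte and 3813 for macrophage markers in their own tables. Of 6 monocyte and neutrophil markers 2 had peaks in the hepatocyte and 3 in the macrophage table, with 7 peaks in each. The hepatocyte library least like the rest of its group was fasted mouse 3 at 16 h, whose log2 values correlated with the mean of the rest at r = 0.905 over all peaks. In macrophage nuclei the lowest such value was 0.955, for fasted mouse 4 at 16 h.

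The starts of 4 genes carry a peak that changed and are shown because the results below turn on them. Each line gives the 250 bases before the start, read 5′ to 3′ on the strand of the gene, from RefSeq (GRCm38.p6, the build that mm10 also names); capitals mark a match to a searched motif. The Tnfaip6 window (chr2:52037863-52038112, plus strand) overlaps a peak that opened in fasted hepatocyte nuclei. The Tnfrsf14 window (chr4:154928078-154928327, minus strand) overlaps a peak that closed in both nuclei types. The windows of Tnfrsf21 (chr17:43016305-43016554, plus strand) and Tnfsf10 (chr3:27316827-27317076, plus strand) overlap peaks that closed in fasted macrophage nuclei.
Tnfaip6: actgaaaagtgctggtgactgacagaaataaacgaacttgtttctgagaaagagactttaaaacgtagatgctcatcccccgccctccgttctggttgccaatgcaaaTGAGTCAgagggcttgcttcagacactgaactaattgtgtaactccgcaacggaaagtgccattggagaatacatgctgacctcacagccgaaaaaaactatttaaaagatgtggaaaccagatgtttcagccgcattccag
Tnfrsf14: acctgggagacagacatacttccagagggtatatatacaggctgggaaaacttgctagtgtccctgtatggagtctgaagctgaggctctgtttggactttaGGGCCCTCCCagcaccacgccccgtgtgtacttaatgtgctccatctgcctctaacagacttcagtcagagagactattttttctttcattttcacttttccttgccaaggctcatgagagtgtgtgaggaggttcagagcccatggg
Tnfrsf21: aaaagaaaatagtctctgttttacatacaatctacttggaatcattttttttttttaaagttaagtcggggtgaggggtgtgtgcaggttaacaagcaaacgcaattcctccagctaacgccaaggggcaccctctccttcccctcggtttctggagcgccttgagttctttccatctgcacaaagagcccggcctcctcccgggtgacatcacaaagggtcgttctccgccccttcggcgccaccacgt
Tnfsf10: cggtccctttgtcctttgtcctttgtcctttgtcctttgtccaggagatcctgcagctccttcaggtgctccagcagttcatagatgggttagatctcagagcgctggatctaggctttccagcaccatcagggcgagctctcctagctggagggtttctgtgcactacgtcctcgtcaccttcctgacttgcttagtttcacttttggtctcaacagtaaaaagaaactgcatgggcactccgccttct

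In the Tnfaip6 window the capitals are an AP-1 motif (TGANTCA) that begins 142 bases before the start. In the Tnfrsf14 window they are an NF-kB motif (GGG, any 5 bases, CC) that begins 148 bases before it. No searched motif was found in the bases shown for Tnfrsf21 and Tnfsf10. Over the 300-base windows in the table (250 bases before and 50 after a start, both strands, overlapping matches counted once per window), 31 of the 35 genes were matched, with 34 windows. The NF-kB motif was in 21 of 34 (61.8%) against 50.8% of all 32851 windows; the match of Tnfaip6 is not within the bases shown. The AP-1 motif was in 6 (17.6%), near Tnfaip6, Tnfrsf8, Tnfsf13, Tnfsf13b and Tnfsf14, against 7.81%. The windows of Tnfsf13b overlap and share the same match, so the 6 windows belong to 5 of the 31 genes. The glucocorticoid receptor motif (ACANNNTGT) was in 0 against 6.85%, and the PU.1 motif (GAGGAAGT) in 3 against 3.20%.

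In hepatocyte nuclei fasting opened some TNF superfamily peaks and closed others at every time, and 51 of the 84 peaks, near 19 of 25 genes, passed the test at 1 or more times, beside 67.4% of all tested peaks. A peak is called opened or closed when it was higher or lower in fasted than in fed mice with a limma adjusted p under 0.05. At 3 h, 5 peaks opened and 13 closed (11.3% and 10.3% of all tested peaks opened and closed). At 8 h, 14 opened and 16 closed (all peaks: 20.3% and 13.7%). At 16 h, 14 opened and 8 closed (all peaks: 19.0% and 12.8%), and at 24 h, 10 opened and 12 closed (all peaks: 25.3% and 11.4%). The median log2 fold change of the 84 peaks was -0.11, -0.019, 0.12 and 0.042 at the 4 times, beside -0.0086, 0.084, 0.099 and 0.16 over all tested peaks.

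Of the 84 hepatocyte peaks, 10 were called the same way at 3 or 4 times, beside 14.9% of all tested peaks, and 0 were called in opposite directions at different times, beside 2.72%. No peak of Tnfaip8, Tnfaip8l2, Tnfrsf18, Tnfrsf23, Tnfsf13 or Tnfsfm13 passed at any time. The split depended on the scaling at the later times. At 24 h the median of all peaks was 0.16 higher in fasted mice, and centring each library on its median left 3 opened and 13 closed member peaks, with 3 and 14 by edgeR and 3 and 15 by DESeq2. Over all 46827 tested peaks, centring gave 7595 opened and 6157 closed at 24 h, beside 11867 and 5315 without it. At 16 h quantile normalization gave 11 opened and 13 closed, and edgeR and DESeq2 each gave 11 and 10. Without fasted mouse 3, the library that stands apart, 8 peaks opened at 16 h instead of 14. At 3 h the 5 opened peaks became 1 without fasted mouse 1 or 4, 2 without fasted mouse 3 or fed mouse 3 and 3 without fed mouse 1, 2 or 4. The 16 closed at 8 h became 7 without fasted mouse 4, and the 10 opened at 24 h became 5 without fasted mouse 1 and 6 without fed mouse 1 or 2.

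**Figure D1:**
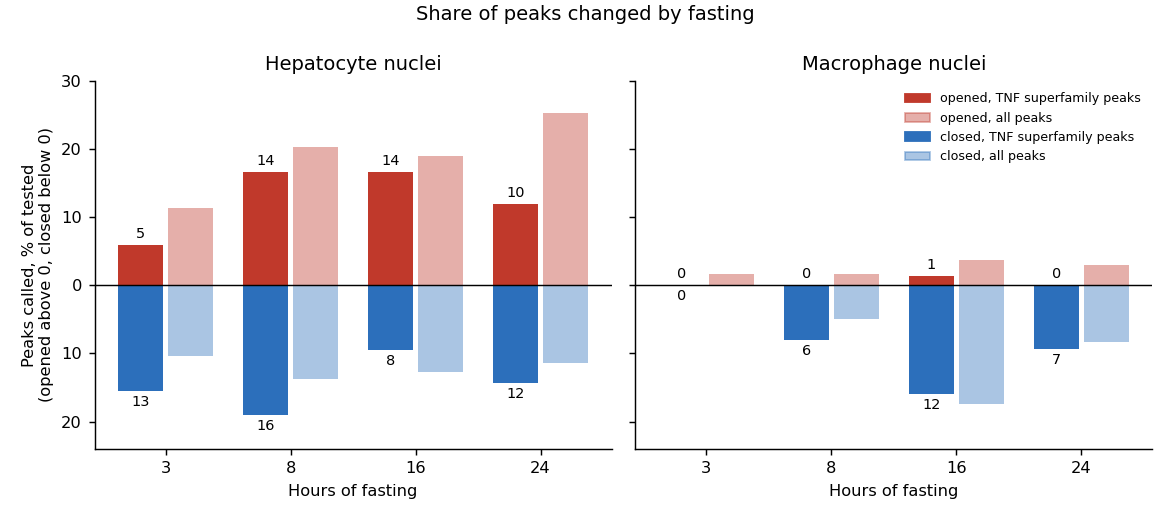
Percentage of tested peaks called opened (above 0) or closed (below 0) at each time, for TNF superfamily peaks (dark bars, with the number of peaks) and all peaks (pale bars), in hepatocyte nuclei (left) and macrophage nuclei (right). The member bars at 24 h in hepatocyte nuclei stand for 10 opened and 12 closed peaks, and those at 3 h in macrophage nuclei for none.

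**Figure D2:**
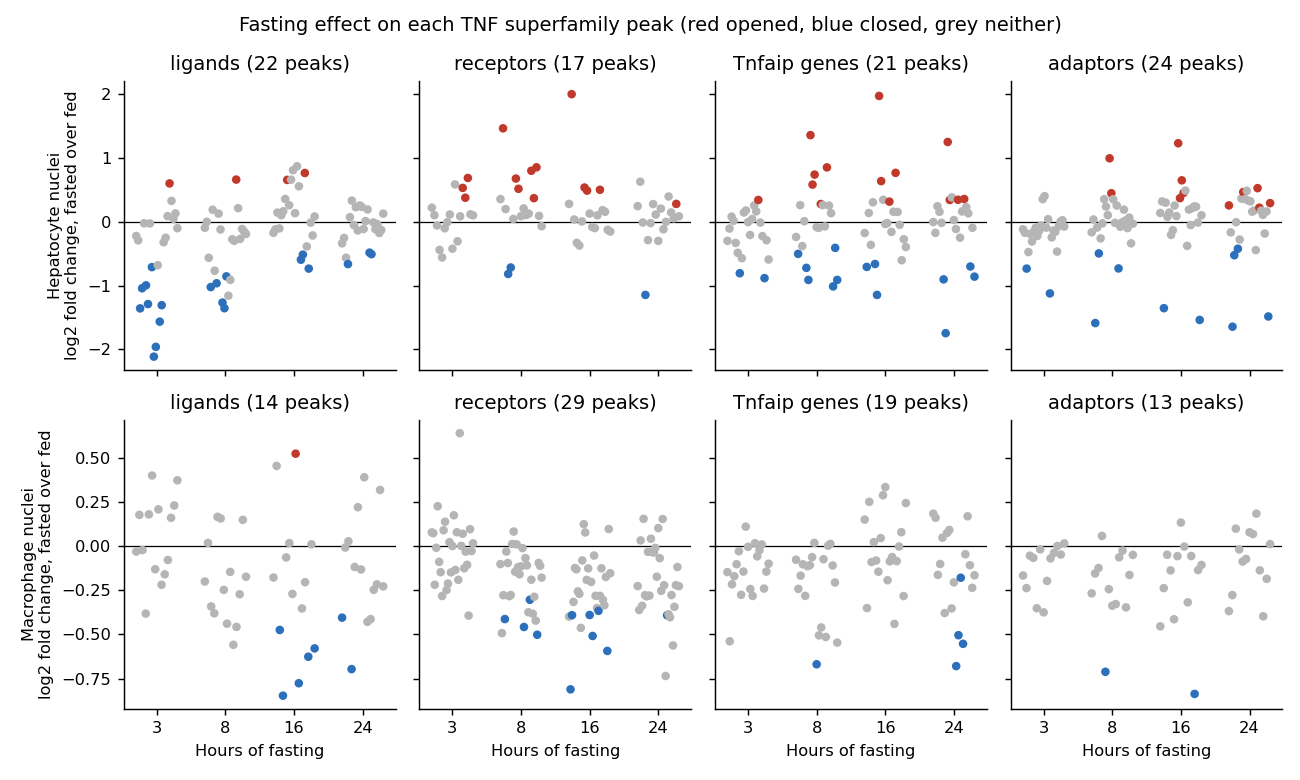
Log2 fold change of fasted over fed mice (vertical axis, other scale in each row) for every TNF superfamily peak at each time, by role, in hepatocyte nuclei (top) and macrophage nuclei (bottom). Points in red opened, points in blue closed and grey points passed no test; the 9 blue ligand points at 3 h include 7 peaks near Tnfsf14 and 2 near Tnfsf10.

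Of 22 hepatocyte ligand peaks, 9 closed (40.9%, beside 10.3% of all tested peaks) and 1 opened at 3 h, with a median log2 fold change of -0.30 beside -0.0086 over all peaks. The closed peaks lay near Tnfsf14 and Tnfsf10 alone. At 8 h, 5 closed and 1 opened, at 16 h 3 closed and 2 opened, and at 24 h 3 closed and 0 opened. The closed shares at 8, 16 and 24 h were 22.7%, 13.6% and 13.6%, beside 13.7%, 12.8% and 11.4% of all tested peaks. The opened shares were 4.55%, 9.09% and 0%, beside 20.3%, 19.0% and 25.3%.

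Tnfsf14 (ENSMUSG00000005824) encodes LIGHT, a ligand of Tnfrsf14 and of the lymphotoxin beta receptor. It had 9 hepatocyte peaks, of which 7 closed at 3 h. The largest change was at chr17:57195708-57195908, 1627 bp before the start and intergenic. There the 4 fed mice at 3 h had 19.3, 11.8, 14.4 and 36.3 normalized reads and the fasted mice 5.71, 7.50, 0 and 1.58. All fasted mice were below all fed mice, a log2 fold change of -2.11 ± 0.48 (SE; limma adjusted p = 0.00152), or 4.33-fold lower on the log2(value + 2) scale. At 8 h the fed mice had 47.7, 47.4, 38.3 and 34.5 and the fasted mice 37.7, 7.06, 29.3 and 7.59, so that fasted mouse 1 lay within the fed range (-1.27 ± 0.48, adjusted p = 0.0401). The 8 h call was lost without fasted mouse 2 (adjusted p = 0.170), fasted mouse 4 (0.162), or any of fed mice 1 to 4 (0.0864, 0.0801, 0.0625 and 0.0515), and by edgeR (0.0650), DESeq2 (0.147), quantile normalization (0.0516) and an offset of 1 (0.0585).

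At 16 and 24 h this Tnfsf14 peak passed no test, with means of 11.3 ± 5.19 in fed and 20.8 ± 14.3 fasted (SD, n = 4) at 16 h. The fasting effect differed between times (limma F, adjusted p = 0.00738). In fed mice the peak also changed over the day, with a mean of 42.0 ± 6.61 at 8 h against 20.4 ± 11.0 at 3 h and 11.8 ± 6.29 at 24 h (adjusted p = 0.0136). The peak 1552 bp before the start overlaps it and moved with it (-1.96 ± 0.49 at 3 h), so both count largely the same reads. The other Tnfsf14 peaks closed at 3 h lay 776, 1020, 7856, 9975 and 11427 bp before the start, with log2 fold changes of -1.31, -1.57, -0.71, -1.29 and -0.996. The last 2 of these lie in introns of C3, the central complement component, which neighbours Tnfsf14, and a peak at the end of C3, 9685 bp before the Tnfsf14 start, opened at 16 h (0.66 ± 0.18, adjusted p = 0.00511). Fed and fasted mice overlapped at that peak.

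Tnfsf10 (ENSMUSG00000039304) encodes TRAIL, a ligand that can start cell death through its receptors. Its intronic peak at chr3:27321258-27321458, 4281 bp past the start, had 99.5, 71.5, 96.0 and 94.3 normalized reads in fed mice at 3 h and 36.7, 44.5, 43.6 and 45.8 in fasted mice. The 2 ranges were far apart, with a log2 fold change of -1.04 ± 0.15 (adjusted p = 6.69e-06). The peak closed again at 8 h (-1.02 ± 0.15, adjusted p = 2.81e-06), passed no test at 16 h (-0.10 ± 0.15, adjusted p = 0.634) and closed at 24 h (-0.66 ± 0.15, adjusted p = 0.00133), and the effect differed between times (adjusted p = 0.00423). The intronic peak 2764 bp past the start closed at 3 h, from 40.4, 38.4, 31.5 and 37.0 to 10.6, 12.5, 17.5 and 12.6 (-1.36 ± 0.27, adjusted p = 0.000288). Tnfsf10 had no promoter peak in the hepatocyte table.

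Tnfsf15, a ligand of Tnfrsf25, had 2 peaks just past its start that closed at 16 and 24 h: at 183 bp the log2 fold change was -0.59 ± 0.14 and -0.48 ± 0.14, with no overlap between the groups at either time. Its peak 26982 bp past the start opened at 8 and 16 h instead (0.66 ± 0.21 and 0.77 ± 0.21), with overlap between fed and fasted mice at 16 h. Tnfsf4, a costimulatory ligand of T cells, had 2 intergenic peaks with unlike calls. At 3 h the peak 16635 bp before the start had 78.3, 69.3, 87.8 and 78.3 in fed and 133, 97.5, 116 and 137 in fasted mice (0.60 ± 0.22, adjusted p = 0.0453). That call was lost in 7 of the 8 fits without 1 mouse (adjusted p 0.0524 to 0.117), after centring (0.0577) and by DESeq2 (0.0610). At 16 h the peak 15195 bp before the start closed (-0.73 ± 0.24, adjusted p = 0.0173), where fasted mouse 1 had 20.7 and the other fasted mice 48.1 to 75.1. Without fasted mouse 1 its log2 fold change was -0.35 (adjusted p = 0.180). The call was also lost without fed mouse 1 or fed mouse 2 (adjusted p = 0.0692 and 0.0929) and with the 2 groups alone (0.137). The highest ligand peak by mean level, 10863 bp before the Tnfsfm13 start (101 normalized reads), passed no test at any time.

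Of 17 hepatocyte receptor peaks, 3 opened and 0 closed at 3 h, 6 and 2 at 8 h, 4 and 0 at 16 h, and 1 and 1 at 24 h. The opened shares were 17.6%, 35.3%, 23.5% and 5.88%, beside 11.3%, 20.3%, 19.0% and 25.3% of all tested peaks, and 14, 9, 13 and 15 of the 17 passed no test at the 4 times. Tnfrsf12a (ENSMUSG00000023905) encodes the receptor of TWEAK, a ligand known for promoting liver progenitor growth. Its intronic peak at chr17:23676782-23676982, 567 bp past the start, was low in every fed group (means 10.3 to 12.7). At 16 h the fed mice had 6.99, 4.88, 17.7 and 11.7 and the fasted mice 48.4, 29.1, 56.1 and 45.4, with no overlap, which is 4.01-fold higher (log2 fold change 2.004 ± 0.28, adjusted p = 1.39e-06). It had opened at 8 h (1.47 ± 0.28, adjusted p = 0.000111), and at 24 h the value was 0.63 ± 0.28 (adjusted p = 0.0771). The effect differed between times (adjusted p = 0.00280). The promoter peak of Tnfrsf12a, 56 bp before the start, passed at no time, with log2 fold changes of 0.22, 0.36, 0.28 and 0.25.

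Tnfrsf8, the receptor of the ligand Tnfsf8, had an intronic peak 28274 bp past the start that opened at 3 and 8 h. At 3 h the fed mice had 52.6, 42.8, 39.1 and 47.9 and the fasted mice 97.8, 57.5, 78.5 and 68.7 (0.69 ± 0.17, adjusted p = 0.00278), and at 8 h the log2 fold change was 0.86 ± 0.17 (adjusted p = 0.000137). At 16 and 24 h it was 0.16 ± 0.17 and 0.055 ± 0.17, and the effect differed between times (adjusted p = 0.0218). The highest receptor peak, 33856 bp past the same start, had a mean of 172 and opened at 24 h (0.28 ± 0.11, adjusted p = 0.0392); quantile normalization brought this to 0.014 (adjusted p = 0.934), and the call was also lost after median centring, by edgeR, by DESeq2 and without fasted mouse 2 or 4 or fed mouse 1 or 3. Tnfrsf25, a death domain receptor, had a peak 8302 bp before its start, in an intron of Plekhg5, that opened at 3, 8 and 16 h (0.53, 0.80 and 0.50, each ± 0.16); at 8 h the fed mice had 46.7 to 65.0 and the fasted mice 76.3 to 117. Its call at 3 h was lost without fasted mouse 1 or 4 or fed mouse 3 (adjusted p = 0.0707, 0.0535 and 0.0528) and that at 16 h without fasted mouse 2 or 4 or fed mouse 1 or 2 (0.0636, 0.0952, 0.0536 and 0.0596), by quantile normalization (0.0712) and with the 2 groups alone (0.103).

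Tnfrsf19, an orphan receptor, opened at 8 and 16 h at 291 bp (0.68 ± 0.17 and 0.54 ± 0.17) and at 13794 bp past its start (0.52 ± 0.15 and 0.49 ± 0.15). Tnfrsf14, the receptor of the ligand Tnfsf14, was the receptor gene whose peaks closed. At 8 h its promoter peak, the one whose sequence is shown above, had 34.0, 31.6, 40.4 and 32.7 in fed and 24.2, 25.4, 19.5 and 13.8 in fasted mice (-0.72 ± 0.22, adjusted p = 0.0115). The peak 1464 bp before the start closed at 8 h (-0.82 ± 0.25, adjusted p = 0.0116) and at 24 h (-1.15 ± 0.25, adjusted p = 0.000884); at 24 h the fed mice had 30.6 to 57.5 and the fasted mice 12.3 to 26.0. The 8 h call of that peak was lost without fasted mouse 4 (adjusted p = 0.0519).

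Of 21 hepatocyte Tnfaip peaks, 1 opened and 2 closed at 3 h, 5 and 6 at 8 h, 4 and 3 at 16 h, and 4 and 4 at 24 h. The opened shares were 4.76%, 23.8%, 19.0% and 19.0%, beside 11.3%, 20.3%, 19.0% and 25.3% of all tested peaks. The closed shares were 9.52%, 28.6%, 14.3% and 19.0%, beside 10.3%, 13.7%, 12.8% and 11.4%. Tnfaip6 (ENSMUSG00000053475) encodes a secreted protein that binds hyaluronan and dampens inflammation. Its peak at chr2:52037111-52037311, 902 bp before the start, opened late. At 3 h the log2 fold change was -0.57 ± 0.31 (adjusted p = 0.189), with 40.4, 24.3, 21.3 and 21.8 in fed and 24.5, 5.50, 22.9 and 23.7 in fasted mice. At 16 h the fed mice had 17.5, 11.9, 18.7 and 13.8 and the fasted mice 64.8, 50.9, 115 and 48.9, a 3.93-fold higher level (1.98 ± 0.31, adjusted p = 5.81e-06). Fasted mouse 3, the library that stands apart, was the highest, and the other fasted mice were still all above the fed mice. It was also open at 8 h (1.36 ± 0.31) and 24 h (1.25 ± 0.31, adjusted p = 0.00205), and the effect differed between times (adjusted p = 0.000358), the smallest such value among hepatocyte members.

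The Tnfaip6 promoter peak, 113 bp before the start, opened at the same 3 times by less (0.58, 0.64 and 0.34, each ± 0.12), without overlap between the groups. At 8 h its fed mice had 74.4, 72.4, 72.4 and 88.1 and its fasted mice 115, 121, 117 and 110. An intergenic peak at chr2:52014375-52014575, 23638 bp before the start, closed at all 4 times. At 24 h the fed mice had 57.5, 58.1, 46.3 and 51.6 and the fasted mice 11.7, 16.1, 15.6 and 14.7, which is 3.36-fold lower (-1.75 ± 0.22, adjusted p = 3.14e-07). At 3, 8 and 16 h the log2 fold changes were -0.81, -0.91 and -1.15, each ± 0.22, and fed and fasted mice did not overlap at any of the 4 times. Peaks named for 1 gene thus closed at 1 distance and opened at others.

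Tnfaip8l1, a lipid-binding member of the Tnfaip8 family, had an intronic peak 8305 bp past the start that opened at all 4 times, most at 8 h (fed 98.2, 91.9, 81.5 and 76.2, fasted 162, 168, 129 and 177; 0.85 ± 0.13, adjusted p = 2.09e-06) and 16 h (0.77 ± 0.13). The smaller values at 3 h (0.34 ± 0.13, adjusted p = 0.0463) and 24 h (0.36 ± 0.13, adjusted p = 0.0249) did not pass after median centring (adjusted p = 0.0571 and 0.0857), and that at 24 h not by quantile normalization, edgeR or DESeq2 (0.385, 0.162 and 0.184). The 3 h call was lost without any 1 of the 8 mice (adjusted p 0.0579 to 0.107) and the 24 h call without fasted mouse 1 or 3 or fed mouse 2 (0.0873, 0.0861 and 0.129). Its promoter peak opened at 8, 16 and 24 h (0.28, 0.32 and 0.35, each ± 0.081). Tnfaip8l3, of the same family, closed: an intergenic peak 36582 bp before its start fell at 3, 8 and 24 h (-0.88, -1.01 and -0.70, each ± 0.26), and its promoter peak 48 bp before the start at 8 and 24 h (-0.91 and -0.86, each ± 0.26). The distal call was lost at 3 h without fasted mouse 1 (adjusted p = 0.0709) and at 24 h without fasted mouse 2 or 4 or fed mouse 1, 2 or 3 (0.0669 to 0.105) and by quantile normalization (0.195).

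Tnfaip2, a cytokine-induced protein, had an intronic peak 826 bp past its start that closed at 8, 16 and 24 h (-0.72, -0.66 and -0.90, each ± 0.20). At 16 h the fed mice had 74.1, 77.4, 98.3 and 81.8 and fasted mice 2 to 4 had 43.6, 47.3 and 45.4, while fasted mouse 1 had 74.3, inside the fed range. Tnfaip8, the founder of that family, had the highest member peak in hepatocyte nuclei, 38 bp before its start (mean 288), and it passed at no time, with log2 fold changes from -0.083 to 0.028; quantile normalization put it at -0.24 at 24 h (adjusted p = 0.00786).

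Of 24 hepatocyte adaptor peaks, 0 opened and 2 closed at 3 h, 2 and 3 at 8 h, 4 and 2 at 16 h, and 5 and 4 at 24 h. The opened shares were 0%, 8.33%, 16.7% and 20.8%, beside 11.3%, 20.3%, 19.0% and 25.3% of all tested peaks. The closed shares were 8.33%, 12.5%, 8.33% and 16.7%, beside 10.3%, 13.7%, 12.8% and 11.4%. Traf2 (ENSMUSG00000026942), the adaptor that brings ubiquitin ligases to TNF receptors, had an intronic peak at chr2:25534277-25534477, 12563 bp past the start, that closed at all 4 times. At 3 h the fed mice had 93.7, 103, 106 and 101 and the fasted mice 55.4, 58.0, 62.2 and 64.0. At 24 h the fed mice had 83.2, 92.3, 85.7 and 75.2 and the fasted mice 26.1, 27.5, 28.5 and 20.5, which is 3.13-fold lower. The log2 fold changes were -0.73, -1.59, -1.35 and -1.64, each ± 0.14, with adjusted p between 2.11e-10 and 0.00027, and the groups did not overlap at any time. The effect differed between times (adjusted p = 0.00346). The Traf2 promoter peak, 97 bp before the start, opened at 24 h (0.26 ± 0.10). Over all tested promoter peaks the median at that time was also 0.26, and 41.1% opened.

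Traf6, the adaptor of Toll-like and interleukin receptors, was the nearest start of a peak 49580 bp away in an intron of Prr5l, close to the 50 kb limit. It had 27.3, 15.3, 14.7 and 17.0 in fed and 5.18, 4.15, 3.21 and 7.86 in fasted mice at 16 h (-1.54 ± 0.27, adjusted p = 3.08e-05) and was as low at 24 h (-1.48 ± 0.27), but not at 3 h (0.026 ± 0.27; adjusted p between times = 0.00270). The Traf6 promoter peak passed at no time. Traf5, an adaptor of costimulatory receptors, was the nearest start of a peak 11653 bp away in an intron of Rcor3 that closed at 3 h, from 37.9, 53.1, 50.7 and 45.7 fed to 14.7, 22.5, 16.4 and 30.8 fasted (-1.12 ± 0.22, adjusted p = 0.000293), and at 8 h (-0.73 ± 0.22). The 8 h call was lost without fasted mouse 4 (adjusted p = 0.0506).

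Traf4, an adaptor found in many epithelial tissues, opened. Its intronic peak 2811 bp past the start had 17.4, 27.9, 16.0 and 22.6 in fed and 45.5, 56.5, 39.1 and 33.8 in fasted mice at 8 h (1.00 ± 0.21, adjusted p = 0.000377), and 2.35-fold more in fasted mice at 16 h (1.23 ± 0.21, adjusted p = 3.08e-05). The effect differed between times (adjusted p = 0.00727), as it did at the Traf4 promoter peak (adjusted p = 0.0128), which opened at 24 h (0.47 ± 0.12, adjusted p = 0.00228). Promoter peaks of Traf5 (21 bp before the start; 0.22 ± 0.082) and Traf7 (30 bp; 0.29 ± 0.10) opened at 24 h as well, at a time when 6725 of all 16351 tested promoter peaks opened (41.1%) and 385 closed (2.35%). Of 28 member promoter peaks, 8 opened (28.6%) and 4 closed (14.3%) at that time. The closed ones included the Traf3 peak 185 bp before its start (-0.42), while the Traf3 peak 4 bp past it passed no test (-0.28). The Traf5 value did not hold under other scalings: median centring gave 0.15 (adjusted p = 0.159), edgeR 0.078 (0.479), DESeq2 0.074 (0.549) and quantile normalization -0.044 (adjusted p = 0.734). It was also lost without fasted mouse 2 or 4 or fed mouse 1, 2 or 4 (adjusted p = 0.114, 0.0908, 0.0883, 0.104 and 0.0647). The Traf5 peak 496 bp before the start opened at 24 h too (0.53 ± 0.19, adjusted p = 0.0278), a call lost without fasted mouse 1 (0.0650) or fed mouse 2 (0.165), after centring, by edgeR and by DESeq2.

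**Figure D3:**
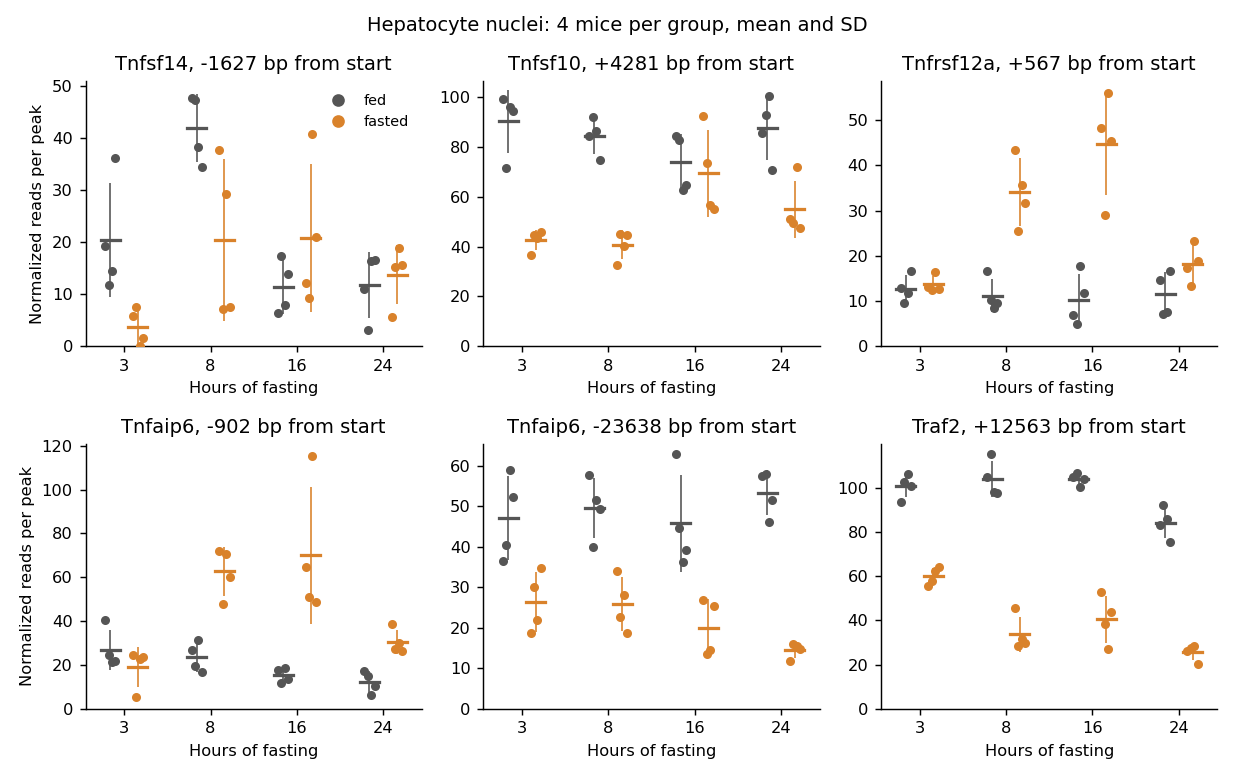
Normalized reads per peak (vertical axis, from 0) in each hepatocyte mouse by hours of fasting; grey points are fed and orange points fasted mice, lines are means and error bars SD (n = 4). Fasted mice lie below fed mice at all 4 times for Traf2 and the distal Tnfaip6 peak, and above them at 8 and 16 h for Tnfrsf12a and the Tnfaip6 peak 902 bp before the start.

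Fed hepatocyte nuclei differed between the 4 times at 17 of 84 member peaks (21.1% of all tested peaks), and the fasting effect differed between times at 14 (24.1% of all tested peaks). The smallest fed values belonged to 2 peaks in introns of Fam222b, whose nearest start is that of Traf4. At 27747 bp the fed means were 54.6 ± 7.90 at 3 h, 44.2 ± 6.83 at 8 h, 22.1 ± 4.69 at 16 h and 56.6 ± 13.7 at 24 h (SD, n = 4; limma F, adjusted p = 9.18e-07). At 27338 bp they were 18.7, 12.3, 7.23 and 22.7 (adjusted p = 0.000145). Both were thus lowest at ZT4. Fasted mice had the same low at 16 h, with means of 30.8 and 12.2, and both peaks were higher in fasted than fed mice then (0.46 ± 0.17, adjusted p = 0.0382, and 0.65 ± 0.25, adjusted p = 0.0459). The first call was lost in fits without fasted mouse 1, 3 or 4 or fed mouse 1 or 2, and the second without fasted mouse 1, 2 or 3 or fed mouse 1 or 3, and neither passed by edgeR (adjusted p = 0.122 and 0.169), by DESeq2, after centring, with an offset of 8 or with the 2 groups alone. A Tnfrsf19 intron peak 44282 bp past the start was highest at 16 h in fed mice, 35.7 ± 11.9 against 16.2 ± 2.95 at 3 h (adjusted p = 0.00613).

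Marker sums of other cell types moved in part of these comparisons. In hepatocyte nuclei the summed cholangiocyte marker peaks (2 of 5 markers, 3 peaks) were 124 to 133 in fed and 74.1 to 85.4 in fasted mice at 8 h. The single stellate cell marker peak was 10.3 to 24.7 in fed and 51.5 to 68.7 in fasted mice at 3 h, and the single Kupffer cell marker peak 28.2 to 33.4 and 18.5 to 24.5. The stellate cell marker peak went the other way later, with means of 52.4 fed and 29.4 fasted at 16 h and 41.2 and 36.8 at 24 h. The 95 hepatocyte marker peaks summed to 5782 to 6358 in fed and 7713 to 8719 in fasted mice at 24 h. Whether these have a part in the member results was not tested.

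In macrophage nuclei 22 of 75 TNF superfamily peaks, near 12 of 27 genes, passed at 1 or more times, beside 30.1% of all tested peaks. Of these 21 closed and 1 opened, and none of the called effects reached 2-fold. At 8, 16 and 24 h the closed shares of members were 8.00%, 16.0% and 9.33%, and those of all tested peaks are given with the counts below. At 3 h limma called 0 peaks opened and 0 closed (all tested peaks: 1.68% and 0.139%), with 3 and 4 at an unadjusted p under 0.05, and edgeR and DESeq2 also called none. At 8 h, 0 opened and 6 closed (all peaks: 1.63% and 4.96%). At 16 h, 1 opened and 12 closed (all peaks: 3.79% and 17.5%), and at 24 h, 0 opened and 7 closed (all peaks: 3.00% and 8.28%). The median log2 fold change of the members was -0.054, -0.17, -0.15 and -0.17 at the 4 times, beside -0.0041, -0.074, -0.10 and -0.055 over all peaks. Of the members 47 of 75 are distal, as are 16032 of 30170 of all peaks, and over all distal peaks the medians were 0.0010, -0.19, -0.22 and -0.15.

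These macrophage counts moved with scaling and with single mice. At 16 h median centring gave 5 opened and 7 closed, quantile normalization 5 and 6, edgeR 4 and 7, and DESeq2 4 and 5. At 24 h the same settings gave 3 and 4, 2 and 4, 1 and 6, and 0 and 3. Over all 30170 tested peaks, centring gave 3779 opened and 2625 closed at 16 h and 2269 and 1600 at 24 h. Without centring, all peaks had 1144 and 5271 at 16 h and 905 and 2497 at 24 h. At 8 h centring moved all peaks from 493 opened and 1497 closed to 1155 and 583. At 8 h the 6 closed peaks became 0 without fasted mouse 3 or without fed mouse 2, 1 without fasted mouse 4, 2 without fed mouse 1, 3 without fed mouse 3 or 4, and 10 without fasted mouse 1. At 8 h edgeR gave 3, and DESeq2, centring and quantile normalization 2 each. At 24 h the 7 became 3 without fed mouse 1 and 4 without fed mouse 2. The 1 opened at 16 h became 0 without fasted mouse 1 or fed mouse 3 or 4 and 2 without fasted mouse 2 or fed mouse 2.

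Over the same comparisons, the 60 peaks of the 10 Kupffer cell and macrophage markers summed to less in fasted mice: 3859 to 4377 fed and 3282 to 3939 fasted at 8 h, 3800 to 4230 and 2993 to 3619 at 16 h, and 3327 to 4586 and 3202 to 3602 at 24 h. The 7 monocyte and neutrophil marker peaks (3 of 6 markers, with Elane, Mpo and S100a9 without a peak) summed to 296 to 391 in fed and 414 to 514 in fasted mice at 8 h. The means of this sum in fed and fasted mice were 454 and 450 at 3 h, 547 and 665 at 16 h, and 569 and 538 at 24 h. The 2 hepatocyte marker peaks summed to 124 to 164 in fed and 75.6 to 94.6 in fasted mice at 24 h. In these samples of pooled nuclei, a change in the mix of macrophages and a change within each nucleus cannot be told apart, and the part of these sums in the member results was not tested.

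Among macrophage ligand peaks, 5 of 14 closed and 1 opened at 16 h, 2 closed at 24 h and none passed at 3 or 8 h. At 16 h these were 35.7% closed and 7.14% opened, beside 17.5% and 3.79% of all tested peaks. At 24 h 14.3% closed, beside 8.28%. The promoter peak of Tnfsf10, 46 bp before the start (chr3:27316931-27317131, sequence above), was the ligand peak with the largest change. At 16 h the fed mice had 53.4, 49.8, 39.1 and 56.2 and the fasted mice 17.8, 38.0, 34.3 and 20.8, all below the lowest fed mouse (-0.85 ± 0.18, adjusted p = 0.000585). It stayed low at 24 h, with 25.6, 36.2, 24.8 and 25.9 against 50.7, 45.5, 38.3 and 52.1 (-0.70 ± 0.18, adjusted p = 0.00572). Its intergenic peak 46811 bp before the start, the highest ligand peak (mean 93.6), closed at 24 h (-0.41 ± 0.10, adjusted p = 0.00735), a call lost without fed mouse 1 (adjusted p = 0.0628). A further intergenic peak, 36265 bp before the start, closed at 16 h (-0.48 ± 0.18, adjusted p = 0.0479), with overlap between fed and fasted mice.

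Tnfsf18, a ligand of the receptor Tnfrsf18, was the gene with calls in both directions at 16 h. Its peak 12243 bp before the start was the single opened member: 40.2, 35.9, 27.4 and 26.9 in fed and 50.3, 43.7, 55.6 and 40.1 in fasted mice, with an overlap of 1 fasted mouse (0.52 ± 0.19, adjusted p = 0.0377). That call was lost without fasted mouse 1 or 3 or fed mouse 3 or 4 (adjusted p = 0.0923, 0.101, 0.112 and 0.109) and with the 2 groups alone (0.0567). Its intronic peak 6282 bp past the start closed, from 48.7, 61.6, 39.9 and 45.2 to 24.7, 24.4, 32.7 and 28.2 (-0.78 ± 0.17, adjusted p = 0.00112). The promoter peak of Tnfsf9, a costimulatory ligand (-0.63 ± 0.21), and a peak in Tnfsf12 named for Tnfsfm13 (-0.58 ± 0.17) closed at 16 h as well. At the Tnfsf9 peak fed and fasted mice overlapped (limma adjusted p = 0.0243). The call at the Tnfsfm13 peak was lost by edgeR, DESeq2 and quantile normalization (adjusted p = 0.0636, 0.101 and 0.172). The promoter peaks of Tnfsf13 (APRIL) and Tnfsf13b (BAFF), both B cell survival factors, passed at no time.

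Of 29 macrophage receptor peaks, 4 closed at 8 h, 6 at 16 h and 1 at 24 h (13.8%, 20.7% and 3.45%, beside 4.96%, 17.5% and 8.28% of all tested peaks), and 0 opened at any time. Tnfrsf21 (ENSMUSG00000023915), a death domain receptor, had the highest receptor peak at its promoter (chr17:43016390-43016590, 65 bp before the start, mean 130), the single member peak called at 3 times (2.01% of all tested peaks were called the same way at 3 or 4 times). No macrophage member was called in opposite directions, beside 0.229% of all tested peaks. At 3 h fed and fasted mice had the same mean (127 ± 8.58 and 127 ± 3.99). At 24 h the fed mice had 155, 159, 144 and 138 and the fasted mice 103, 105, 110 and 136 (-0.39 ± 0.091, adjusted p = 0.00280), with no overlap. At 8 and 16 h the log2 fold changes were -0.30 and -0.37, each ± 0.091 (adjusted p = 0.0339 and 0.00338). After median centring they were -0.19 (adjusted p = 0.190) and -0.22 (adjusted p = 0.0598), by DESeq2 neither passed (0.151 and 0.0785), by edgeR the first did not (0.0914), and the 8 h call was lost in 7 of 8 fits without 1 mouse (adjusted p 0.0502 to 0.127). Its intronic peak 42264 bp past the start closed at 8 h (-0.50 ± 0.16, adjusted p = 0.0471), a call lost in 6 of 8 such fits (adjusted p 0.0675 to 0.189) and by DESeq2, centring and quantile normalization.

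Tnfrsf14 closed at its promoter peak at 8 and 16 h: at 16 h the fed mice had 63.4, 63.8, 61.0 and 72.1 and the fasted mice 49.5, 38.0, 49.1 and 44.6 (-0.51 ± 0.13, adjusted p = 0.00307). The 8 h value was -0.46 ± 0.13 (adjusted p = 0.0202), lost without fasted mouse 3 or 4 or fed mouse 2 or 3 (adjusted p = 0.122, 0.0956, 0.0538 and 0.0508) and by edgeR, DESeq2, centring and quantile normalization (0.0515, 0.0960, 0.0852 and 0.0803), and the 16 h call by DESeq2 (0.0562). Tnfrsf11a encodes RANK, the receptor through which macrophage precursors become osteoclasts, and it had 9 macrophage peaks and none in the hepatocyte table. The peak 33990 bp before its start, in an intron of Relch, fell from 30.9, 29.3, 30.5 and 34.2 to 16.2, 16.5, 25.3 and 11.9 at 16 h (-0.81 ± 0.19, adjusted p = 0.00168), its promoter peak closed at 16 h (-0.39 ± 0.13) and the intronic peak at 6509 bp closed at 8 h (-0.41 ± 0.13). Quantile normalization ended the first of these calls (adjusted p = 0.0660). The call at 6509 bp (limma adjusted p = 0.0385) was lost without fasted mouse 3 or fed mouse 2, where no macrophage member closed at 8 h. Other fits of that peak and of the promoter peak are not given here. The promoter peak of Tnfrsf22, a decoy receptor of TRAIL, closed at 16 h (-0.59 ± 0.15, adjusted p = 0.00360).

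Among 19 macrophage Tnfaip peaks, 1 closed at 8 h, 0 at 16 h and 4 at 24 h, and none opened. The closed shares were 5.26%, 0% and 21.1%, beside 4.96%, 17.5% and 8.28% of all tested peaks. All 4 closed at 24 h were those of Tnfaip8, with log2 fold changes of -0.68 ± 0.19 at 10534 bp and -0.50 ± 0.15 at 6745 bp before the start, -0.55 ± 0.18 at 7543 bp past it and -0.18 ± 0.054 at the promoter, each distance taken from the nearest of its starts. That promoter peak was the highest of all macrophage members, with 526, 513, 534 and 449 in fed and 434, 447, 473 and 428 in fasted mice at 24 h. Its change did not hold after centring (-0.078, adjusted p = 0.474), by edgeR (adjusted p = 0.162) or by DESeq2 (0.194), nor without fasted mouse 1 or 4 or fed mouse 1, 2 or 3 (adjusted p 0.0661 to 0.0967), and the call at 10534 bp was lost without fasted mouse 2 or 3 or fed mouse 1 (0.0602, 0.0646 and 0.0586), by DESeq2 (0.0580) and by quantile normalization (0.130). At the Tnfaip8 peak 7543 bp past the start fed and fasted mice overlapped at 24 h (limma adjusted p = 0.0415). The Tnfaip2 intron peak 6796 bp past the start closed at 8 h, from 37.5, 57.8, 37.5 and 41.4 to 33.0, 24.6, 18.2 and 31.7 (-0.67 ± 0.17, adjusted p = 0.0139). Its log2 fold change was 0.33 ± 0.17 at 16 h, and it was the 1 macrophage member whose effect differed between times (adjusted p = 0.0468; 3.49% of all tested peaks did). The 8 h call was lost without fasted mouse 3 or fed mouse 2 (adjusted p = 0.113 and 0.0841).

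Of 13 macrophage adaptor peaks, 1 closed at 8 h and 1 at 16 h (7.69% each, beside 4.96% and 17.5% of all tested peaks). The Traf5 intron peak 14005 bp past the start had 82.7, 79.9, 79.8 and 75.8 in fed and 27.8, 51.6, 58.1 and 43.1 in fasted mice at 16 h (-0.84 ± 0.15, adjusted p = 0.000137), a clear gap between the groups. The Traf3 peak 6173 bp before the start closed at 8 h (-0.71 ± 0.20, adjusted p = 0.0263), a call lost in 5 of 8 fits without 1 mouse (adjusted p 0.0547 to 0.132) and by quantile normalization (0.0864); Traf3 is known for holding the noncanonical NF-kB pathway in check. Promoter peaks of Traf2, Traf5, Traf6 and Traf7 passed at no time. In fed macrophage nuclei limma F found 0 member peaks that differed between the 4 times (1.63% of all tested peaks), with 5 at an unadjusted p under 0.05; the 3 smallest belonged to the Tnfsf13 promoter (adjusted p = 0.107), the Tnfaip2 promoter (0.115) and the Tnfaip2 peak 12018 bp before the start (0.310).

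**Figure D4:**
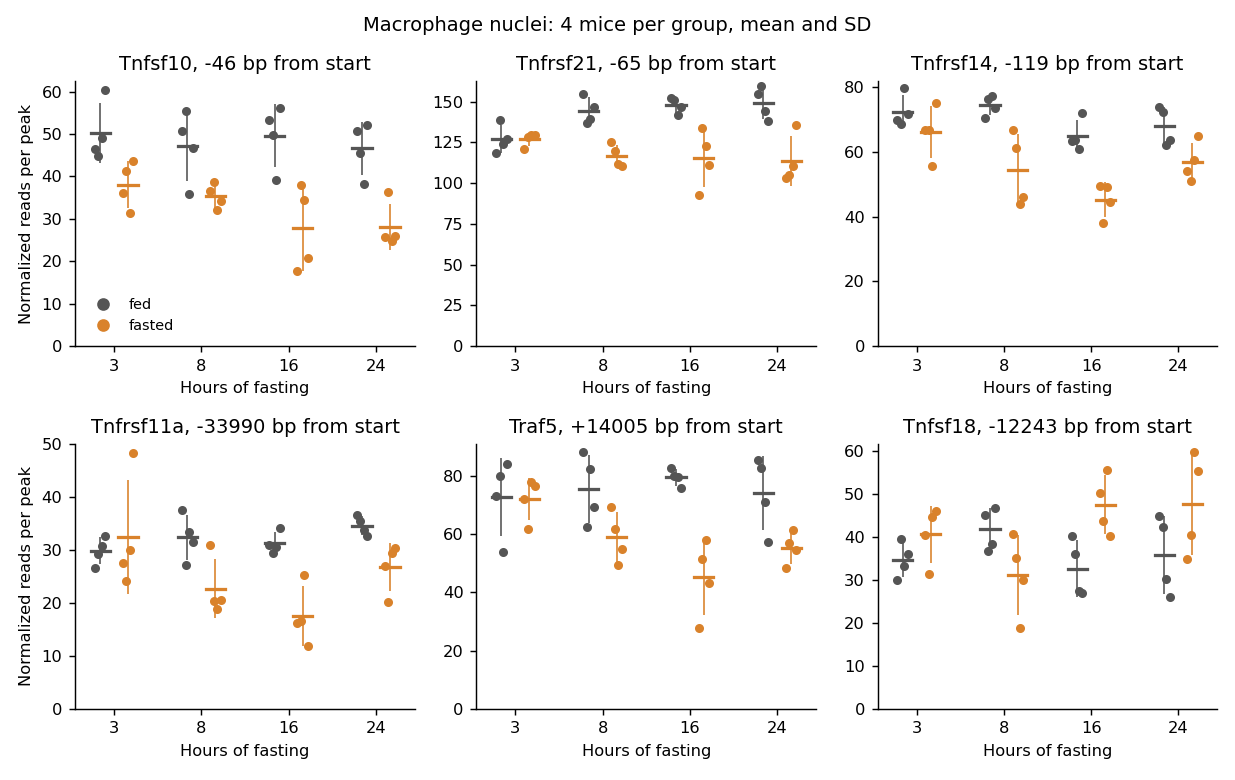
Normalized reads per peak (vertical axis, from 0) in each macrophage mouse by hours of fasting; grey points are fed and orange points fasted mice, lines are means and error bars SD (n = 4). At 16 h the fasted mice lie below all fed mice for Tnfsf10, Tnfrsf21, Tnfrsf14, Tnfrsf11a and Traf5, while Tnfsf18 has fasted mice at 40.1 to 55.6 and fed mice at 26.9 to 40.2.

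Of the member peaks, 23 (15 genes) lay at the same place in both tables, with at least 100 bp shared; they are 27.4% of the hepatocyte and 30.7% of the macrophage members. They include promoter peaks of Traf2, Traf3, Traf5, Traf6 and Traf7. Just 1 was called in both tables at the same time, the Tnfrsf14 promoter peak at 8 h (-0.72 in hepatocyte and -0.46 in macrophage nuclei), where the macrophage call did not hold in the other fits given above. The Tnfrsf14 peak 1464 bp before the start closed in both at different times: at 8 and 24 h in hepatocyte nuclei and at 16 h in macrophage nuclei (-0.39). The Tnfsf10 peak 46811 bp before the start was in both tables and closed at 24 h in macrophage nuclei (-0.41), with -0.34 and no call in hepatocyte nuclei. The tables were normalized separately and no difference between cell types was tested.

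Of 59 further genes that act in TNF signalling (ligands and receptors outside the family names, NF-kB subunits and inhibitors, ubiquitin ligases, caspases and kinases), 46 had 145 hepatocyte peaks and 48 had 155 macrophage peaks. In hepatocyte nuclei 18 opened and 11 closed at 3 h, 30 and 11 at 8 h, 21 and 11 at 16 h, and 31 and 15 at 24 h. The opened shares were 12.4%, 20.7%, 14.5% and 21.4%, beside 11.3%, 20.3%, 19.0% and 25.3% of all tested peaks, and the closed shares 7.59% at 3, 8 and 16 h and 10.3% at 24 h, beside 10.3%, 13.7%, 12.8% and 11.4%. The changes included Fasl, a death ligand, where a peak 37638 bp past the start was 3.96-fold higher in fasted mice at 16 h (21.9 ± 7.33 fed, 90.0 ± 18.3 fasted), and Nfkbiz, an atypical NF-kB inhibitor (3.20-fold higher at 16 h). Lower in fasted mice were a peak of Nfkbib, another inhibitor (3.89-fold at 8 h), and peaks of Birc3, a ubiquitin ligase that Traf2 recruits, at 3 h (1.56-fold) and 8 h (2.57-fold). A peak near Tab2, a kinase adaptor, was 1.53-fold higher at 3 h, and at 24 h Nfkb2, an NF-kB subunit precursor, had a peak 2.52-fold lower and Map3k14, the kinase of the noncanonical pathway, a promoter peak 1.40-fold higher.

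In macrophage nuclei 3 opened and 1 closed at 3 h, 1 and 6 at 8 h, 7 and 20 at 16 h, and 3 and 10 at 24 h. The opened shares were 1.94%, 0.645%, 4.52% and 1.94%, beside 1.68%, 1.63%, 3.79% and 3.00% of all tested peaks, and the closed shares 0.645%, 3.87%, 12.9% and 6.45%, beside 0.139%, 4.96%, 17.5% and 8.28%. Birc3 had a peak 4954 bp past its start that opened early, from 23.2 ± 2.89 to 61.9 ± 10.6 at 3 h (2.52-fold, adjusted p = 5.74e-07) and 1.90-fold at 8 h. Peaks of Nfkbia, the main NF-kB inhibitor, opened at 3 h (1.48-fold, adjusted p = 2.87e-05) and at 16 h (1.67-fold). Closed peaks lay near Cflar, a caspase inhibitor, at 8 h (1.70-fold), Casp8, the caspase it blocks, at 16 h (1.89-fold), and Nfkbiz (1.65-fold) and Tnip1, a partner of the ubiquitin editor of this pathway (1.76-fold), at 24 h.

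In the authors' deposited table, at their adjusted p under 0.05, the hepatocyte members had 4 opened and 13 closed peaks at 3 h, 13 and 12 at 8 h, 10 and 8 at 16 h, and 5 and 10 at 24 h. In the authors' deposited table the macrophage members had 0 and 0, 0 and 6, 0 and 8, and 0 and 6. Calls shared in direction with the limma calls above were 17, 25, 18 and 15 in hepatocyte and 0, 6, 8 and 6 in macrophage nuclei, counted from the authors' deposited table. The share of all peaks called by the authors is not given here, so these counts do not show whether members were called more or less often.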

How the data were processed

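ATAC-seq of 32 hepatocyte and 32 macrophage mice was used, in 16 groups of 4. Each cell type has a table, deposited by the authors, of normalized signal by peak and mouse, beside log2 fold changes and adjusted p-values of their own; per the submitters' processing notes BWA 0.7.5a-r405, SAMtools, HOMER, DESeq2 and mm10 were used, with the role of each not given in the sources used here. Every deposited value was a whole multiple of 1 step per column (within 0.01 of a read), from which reads were recovered for edgeR and DESeq2.

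Fits used limma 3.58.1 with a variance trend (R 4.3.3) on log2(value + 2), with 8 group means per cell type, after dropping peaks whose mean was under 10 normalized reads. This left out 5 hepatocyte peaks and 0 macrophage peaks, no member among them. P-values were Benjamini-Hochberg adjusted over all tested peaks, with a threshold of 0.05. Fold changes are on the log2(value + 2) scale and understate changes of low peaks. Alternatives were offsets of 1 and 8, no filter, median centring, quantile normalization, the 2 groups compared alone, sets of library numbers as a block, edgeR 4.0.16, DESeq2 1.42.0 and leaving out each mouse. The fit was tested on simulated data.

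Named peaks are, per cell type and time, the 4 largest opened and 4 largest closed with 1 peak per gene, those called 1 way at 3 or 4 times, the highest of each role, and the 3 smallest p of each F test, with promoter peaks of the same genes beside them. The Tnfsf15 peaks, the Tnfrsf19 peaks at 291 and 13794 bp, the further Tnfsf14 peaks and the macrophage promoter peaks of Tnfsf9 and Tnfrsf22 were added after their values were seen. The hepatocyte Traf3 promoter peaks and the macrophage value of the Tnfrsf14 peak at 1464 bp were added likewise. From the further pathway genes up to 2 passing peaks of smallest p are named. The members and lists were chosen with earlier results of these data known. Nothing in the labels says how the mice were housed or whether groups shared a day.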

Additional observations from a re-analysis of the deposited data

Results flagged for a closer look

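Effects of fasting differed between the 4 times (limma F test, adjusted p) at 13 named peaks. In hepatocyte nuclei these were Tnfaip6 at 902 bp before the start (0.000358), Traf6 at 49580 bp (0.00270), Tnfrsf12a at 567 bp (0.00280), Traf2 at 12563 bp (0.00346), Tnfsf10 at 4281 bp (0.00423) and 2764 bp (0.0235), Traf4 at 2811 bp (0.00727) and -44 bp (0.0128), Tnfsf14 at 1627 bp (0.00738) and 1552 bp (0.00791), Tnfrsf8 at 28274 bp (0.0218) and Tnfaip8l1 at 8305 bp (0.0396). In macrophage nuclei it was Tnfaip2 at 6796 bp (0.0468). The opened peaks of Tnfaip6, of Tnfrsf12a and of Traf4 at 2811 bp had their largest effect at 16 h, and both Tnfsf14 peaks had theirs at 3 h.

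In 5 groups 1 mouse stood apart from the others, by a gap beyond Dixon's limit for 4 values; 104 hepatocyte and 36 macrophage groups were examined, and chance flags about 1 in 20. Fed mouse 4 at 8 h had 31.5 normalized reads at Traf5 -11653 bp, where the others had 42.2 to 43.9. Fasted mouse 1 at 16 h had 74.3 at Tnfaip2 826 bp, where the others had 43.6 to 47.3. Fasted mouse 3 at 24 h had 72.0 at Tnfsf10 4281 bp, against 47.5 to 50.9. Fed mouse 4 at 3 h had 34.1 at Tnfaip8l3 -36582 bp, against 25.0 to 26.6. In macrophage nuclei fasted mouse 2 at 24 h had 36.2 at the Tnfsf10 promoter peak, against 24.8 to 25.9.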

How the results depend on the processing

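Of 52 called effects at named hepatocyte peaks, 35 kept direction and call in every alternative and every fit without 1 mouse, and of 18 in macrophage nuclei 5 did: Tnfsf10 -46 bp at 16 and 24 h, Tnfrsf21 -65 bp at 24 h, Tnfsf18 6282 bp and Traf5 14005 bp at 16 h. Sign changed at 2 uncalled or weak values at 24 h in hepatocyte nuclei under quantile normalization, the Traf5 peak at -21 bp (-0.044) and the Tnfaip8 peak at -38 bp (-0.24, adjusted p = 0.00786).

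Counts moved as follows, and the cause was not tested. Hepatocyte opened peaks at 3 h were 3 after centring; closed peaks at 3 h were 20 with the 2 groups alone; opened at 16 h were 7 with the 2 groups alone; closed at 16 h were 13 by quantile normalization; opened at 24 h were 3 by DESeq2, 3 by edgeR, 3 after centring and 6 by quantile normalization. Macrophage closed peaks at 8 h were 2 by DESeq2, 3 by edgeR, 2 after centring and 2 by quantile normalization. Macrophage opened peaks at 16 h were 4 by DESeq2, 4 by edgeR, 5 after centring, 2 with an offset of 8, 0 with the 2 groups alone and 5 by quantile normalization, and closed ones 5, 7 and 7 by DESeq2, edgeR and centring and 6 by quantile normalization. At 24 h opened ones were 1 by edgeR, 3 after centring and 2 by quantile normalization, and closed ones 3 by DESeq2, 4 after centring and 4 by quantile normalization. After centring 3 macrophage peaks differed in effect between times.

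Leaving out single mice gave 1 to 4 opened and 9 to 15 closed hepatocyte peaks at 3 h, 13 to 16 and 7 to 17 at 8 h, 8 to 15 and 7 to 9 at 16 h, and 5 to 11 and 9 to 12 at 24 h. Macrophage closed peaks ranged from 0 to 10 at 8 h, 9 to 15 at 16 h and 3 to 10 at 24 h, and opened ones from 0 to 2 at 16 h. The labels give no replicate number shared between groups. With sets of library numbers from the titles as a block, 109 hepatocyte and 72 macrophage results kept direction and call, 2 hepatocyte ones newly passed, and the Traf4 peak at 27338 bp lost its call at 16 h (adjusted p = 0.0513).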
